A study of Drosophila melanogaster with 12 samples.

Results

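The 128 targets described here are clones of the adult testis cDNA library, whose names start with AT and end in 5 digits. They were chosen by that name alone, leaving out any clone of the gene f-cup, of which there were 0. They are 128 of the 25857 targets on the array, and 145 probes point to them. The probe with the highest mean level stands for each clone, and 15 clones had several probes. Total RNA of Drosophila melanogaster larvae was hybridised to 12 one-colour arrays, with 3 biological replicates in each of 4 groups. The groups were w1118 control larvae on ethanol food, w1118 control larvae on food with 200 µM rapamycin, REPTOR knockout larvae on ethanol food and REPTOR knockout larvae on food with 200 µM rapamycin. Feeding lasted 6 h in every group, all larvae were taken 48 h before wandering, and all are labelled female. Rapamycin inhibits the TORC1 kinase complex, and REPTOR is a transcription factor of the bZIP family that TORC1 holds in check. The knockout allele, the number of larvae per sample and the number of knockout lines are not given in the sources used here. No probe was matched to REPTOR, so the genotype labels were not checked against the targeted gene.

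A cDNA library made from one organ samples the transcripts of that organ. In the testis of Drosophila, spermatocytes switch on a large set of genes that few other tissues use, many of them through the testis-specific complex tMAC. A clone first picked from testis need not be testis-specific, since housekeeping transcripts are cloned from every tissue. The long non-coding RNAs roX1 and roX2 belong to the dosage compensation complex, which raises transcription of the X chromosome in males, and in adult flies both are made mostly in males. They are used here as reference RNAs for the arrays.

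Levels are log2 processed signals relative to the 75th percentile of the array, so a level of 0 equals that percentile and a difference of 1 is a doubling. The clones matched few named genes: 23 matched 1 gene of the reference table, 1 matched several and 104 matched none. In the Release 6 assembly of that table the 23 lay on the autosomal arms 2L (2 clones), 2R (7), 3L (6) and 3R (8). None of the 42 listed male germline genes and none of the 4 listed genes of both germlines could be matched to a target, so the testis label was not checked against known markers. Of the 7 listed dosage compensation genes only roX1 and roX2 were matched. The lists for fat body (6 genes) and salivary gland (5 genes) also had 0 matches.

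A set of 3 arrays stood apart from the rest before any clone was considered. On control larvae, roX2 lay at -6.90, -8.97 and -7.27 after ethanol and at -8.74, -8.68 and -1.29 after rapamycin. On knockout larvae it lay at -9.06, -7.52 and -8.81 after ethanol and at 0.01, -1.10 and -5.83 after rapamycin. Thus roX2 was above -3 on array 3 of the control rapamycin group and on arrays 1 and 2 of the knockout rapamycin group, called the roX2-raised arrays below. These levels are of the roX2 target with the higher mean, which is the one meant below. It was well above background on these and on knockout rapamycin array 3, and on no other array. Another roX2 target was also highest on the roX2-raised arrays, but at -3.45 on the control array it was under the cutoff of -3. On knockout rapamycin array 3 it lay at -7.29, within its range of -9.14 to -6.99 on the ethanol arrays. It was well above background on only 3 arrays. roX1 was highest on the same 3 arrays, at 3.35, 3.88 and 2.91, against -1.57 to 0.43 on the other 9. Among those 9 it was also higher on rapamycin. In control larvae it lay at 0.17 and 0.43, against -0.80 to -0.13 on ethanol. In knockout larvae it lay at -0.47, against -1.57 to -1.39 on ethanol. Leaving out the 3 arrays thus does not remove the difference in roX1 between foods. All 12 arrays carry the label female, and no other male marker could be read, so the sex of the larvae was not tested further. The 3 arrays are all of rapamycin-fed larvae, so every comparison of food is given below with and without them. They were not compared with the rest by a test, because they were singled out by their values.

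The testis clones were the weaker part of what the array measured. On the 9 other arrays their median level ran from -7.67 to -6.66, whereas the median of all targets ran from -3.85 to -3.70. The lowest signal counted as well above background lay between -7.48 and -6.79, so about as many clones were below detection as above it. Between 54 and 68 of the 128 clones were well above background on each of these 9 arrays. On the roX2-raised arrays the number was 102 (79.7%) for the control array and 110 (85.9%) and 95 (74.2%) for the first and the second knockout array. Of all targets 78.8%, 77.6% and 75.1% were detected there, against 69.1% to 73.8% on the other 9. The median clone level there was -4.54, -3.69 and -5.12, against -3.28, -3.04 and -3.46 for all targets. In bulk RNA, fewer cells of a type and less RNA per cell cannot be told apart.

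**Figure D1:**
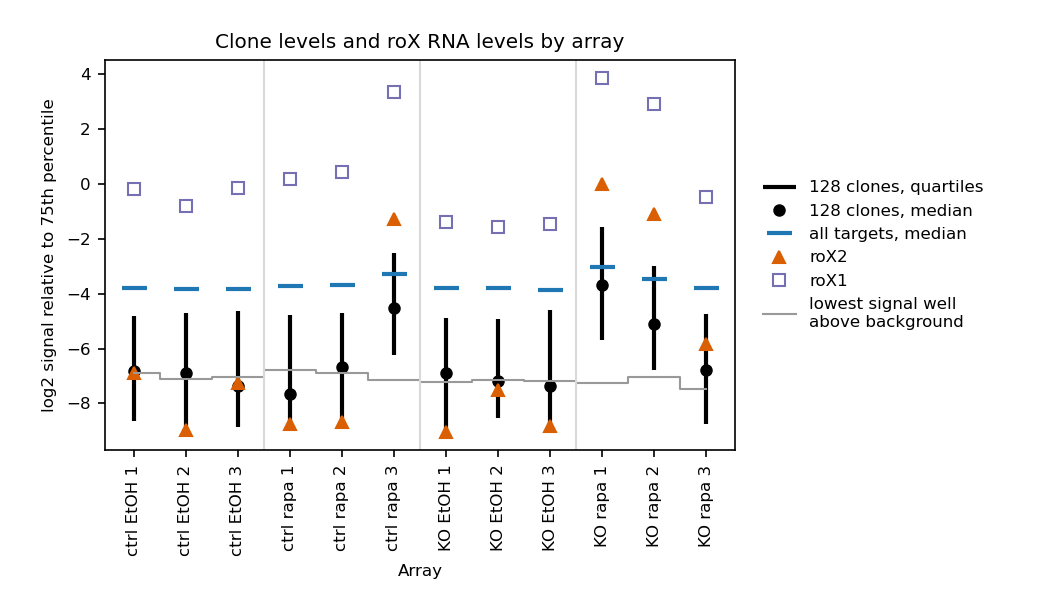
Level on each of the 12 arrays (log2 relative to the array's 75th percentile) of the 128 clones, with the median as a dot and the quartiles as a bar, of all targets, and of roX2 and roX1; the grey step is the lowest signal well above background. The clone median was -4.54, -3.69 and -5.12 on the 3 arrays with roX2 above -3 and between -7.67 and -6.66 on the other 9.

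By detection the clones fell into 4 kinds. Across all 12 arrays, 46 clones were well above background, a share of 35.9% against 64.1% of all targets. Another 24 clones, 18.8%, were well above background on the 3 roX2-raised arrays and on no other, which held for 2.68% of all targets. On no array at all were 13 clones detected, or 10.2% against 13.2% of all targets. The remaining 45 were detected on some other set of arrays. The clones thus differed widely in where they could be seen.

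**Figure D2:**
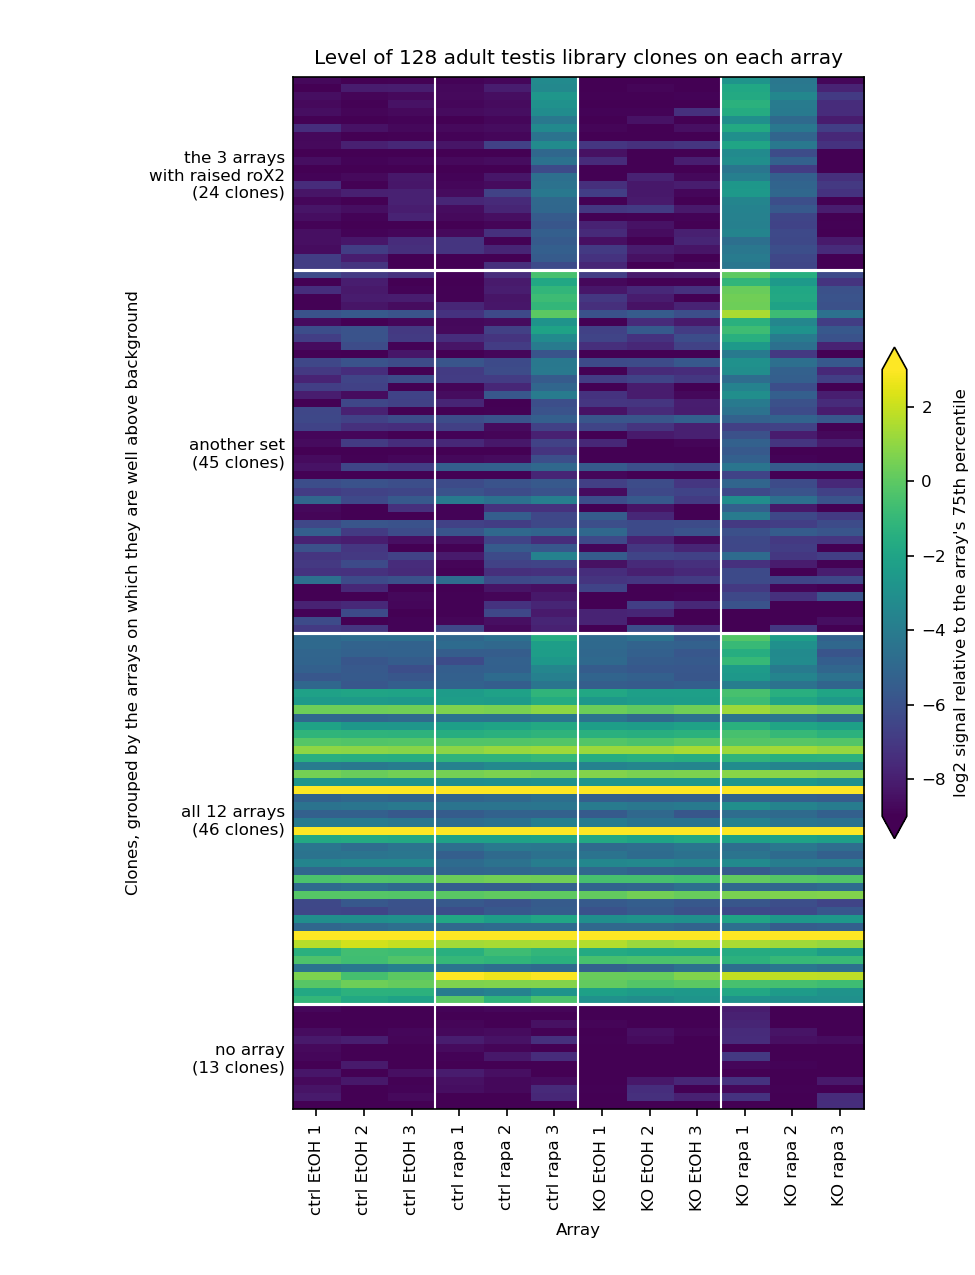
Level of each of the 128 clones (rows) on each of the 12 arrays (columns), as log2 signal relative to the array's 75th percentile, with rows grouped by where the clone was well above background and ordered within a group by the gap between the roX2-raised arrays and the rest. The 24 clones of the top block are bright in only 3 columns, control rapamycin 3 and knockout rapamycin 1 and 2, and part of the next block is bright in the same columns.

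Many testis clones were higher on every roX2-raised array than on any other array. This gap, the lowest level on the 3 arrays minus the highest on the other 9, was above 0 for 54 of the 128 clones, or 42.2%, against 8.76% of all 25825 targets with a value on every array. The gap exceeded 1 for 35 clones (27.3%, against 5.11%). Where the other arrays were below detection such a gap is no fold change. With each undetected reading raised to the lowest signal well above background on its array, and all 3 raised arrays detected, the gap was above 0 for 52 clones (40.6%, against 8.02%) and above 1, at least a doubling, for 29 (22.7%, against 4.47%). Among the 54, the gap ran from 0.08 to 4.75 with a median of 1.67, and 53 were well above background on all 3 arrays. No clone was lower on all 3 arrays than on all others, an arrangement shown by 0.492% of all targets. Since many of the clones were near or below background on the other arrays, the count was also taken among those measured everywhere: 12 of the 46 clones detected on all 12 arrays had a gap above 0, against 4.37% of the targets detected on all 12. All 24 clones detected on the 3 arrays alone had one, which their choice by detection there largely fixes. The clones nearest the line were AT08427, with a gap of 0.08, and AT18175, with a gap of -0.03.

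The order within the 3 arrays was nearly the same for each of these clones. For 53 of the 54 (98.1%) the highest level was on knockout rapamycin array 1, as for 94.4% of all targets with a gap above 0, and for 1 it was on array 2 of that group. In 50 of them (92.6%) control rapamycin array 3 came next and knockout rapamycin array 2 last, as for 85.9% of those targets. That is the order of roX1, while roX2 was higher on knockout rapamycin array 2 than on control rapamycin array 3. Only 13 of the 54 were detected on both control rapamycin arrays 1 and 2, and 23 on knockout rapamycin array 3, so steps between arrays of a group are given with undetected readings at the detection limit. So bounded, the step from the mean of control rapamycin arrays 1 and 2 to array 3 had a median of 2.29 among the 54 clones. The step from knockout rapamycin array 3 to array 1 had a median of 4.27, and that to array 2 a median of 2.01. Across the 54 clones the unbounded control step and larger knockout step had a Pearson r of 0.81 and a Spearman rho of 0.79. Across all 128 clones these were 0.88 and 0.86, and across 25836 targets 0.81 and 0.32. The points share arrays and a common detection limit, so these are descriptions and not tests.

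The slide a sample was hybridised on did not separate the 3 arrays from their group. Control rapamycin arrays 2 and 3 shared slide 2, and all 3 knockout rapamycin arrays shared slide 3. Within these slides, array 3 was above array 2 in control larvae and arrays 1 and 2 were above array 3 in knockout larvae for 85 clones (66.4%, against 27.1% of all targets). All 3 of these differences exceeded 1 for 47 clones (36.7%, against 6.76%), which includes rises from levels below detection.

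Among clones also detected on some other array, AT26853 had the widest gap, which is the widest of all clones. Its level was -6.24, -6.96 and -7.28 in control larvae on ethanol and -8.86, -7.47 and -0.48 on rapamycin. In knockout larvae it was -6.80, -8.18 and -8.14 on ethanol and 0.02, -1.49 and -6.33 on rapamycin. So the single control array and the 2 knockout arrays stood at least 4.75 above every other array. Of the other rapamycin arrays, control array 1 was the lowest of all 12, and knockout array 3 was above the knockout ethanol arrays. AT11810 followed with a gap of 4.61, then AT23593 with 4.17, AT14585 with 4.15 and AT19369 with 3.94. On knockout rapamycin array 1 these 4 clones lay between -1.11 and 0.41. AT30951 (gap 3.78) and AT09606 (gap 3.35) complete this set. The second probe of AT19369 did not share the pattern and had a gap of -2.31. Of the 15 clones with several probes, 4 had probes on both sides of a gap of 0. Besides AT19369 these were AT08427, counted at 0.08 but at -1.33 on its other probe, and AT28829 and AT03160. The last 2 were not counted, but each had an unused probe above 0, at 2.59 and 1.38.

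The clone with a known role in the testis programme was AT27450, which matched wuc on arm 2R. The gene, wake-up-call, encodes a paralogue of Lin-52 that binds Always early, a tMAC subunit. Its level was -3.28 on the roX2-raised control array and -2.78 and -4.25 on the roX2-raised knockout arrays 1 and 2. On the other 9 arrays it lay between -9.17 and -8.74, below detection on each. Set against the lowest detectable signal on those arrays, the lowest of the 3 raised levels was at least 5.83-fold higher. The other 3 rapamycin arrays were thus below detection, like all 6 ethanol arrays.

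Of the widest gaps, 4 more belong to clones detected on the roX2-raised arrays alone, and they are bounded in the same way. AT16577 was at least 10.1-fold higher on each of the 3 arrays than the limit on the others, AT15627 at least 6.91-fold, AT15857 at least 6.69-fold and AT15479 (CG31542) at least 6.26-fold. Across the 23 of 24 clones for which a bound could be given, it ran down to 1.14-fold. These clones were thus below detection on every ethanol array and detected on 3 of the 6 rapamycin arrays.

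A gap above 0 was found for 7 of the 23 clones with a gene name. Besides wuc and CG31542 these were CG32148 (AT21341), ND-B14.5AL (AT13913), CG15605 (AT23338), CG30284 (AT22714) and CG31093 (AT30660). Against the detection limit CG31093 was at least 1.30-fold and CG15605 at least 1.14-fold higher, and no fold can be given for CG32148 or ND-B14.5AL. ND-B14.5AL is named as a relative of a subunit of mitochondrial complex I, and it was detected on 2 of the 3 arrays, at -5.89 in control larvae and -4.03 in knockout larvae, and not on knockout rapamycin array 2, at -6.99. The other named clones had gaps of 0 or less. Among these, CG13526 (AT13807), CG32219 (AT25132), CG13474 (AT29351) and CG3748 (AT30262) were detected on no array. CG31867 (AT02643) and CG4960 (AT31258) were detected only on knockout rapamycin array 1, at -5.64 and -6.03. The clone matched to puf (AT28817), which encodes a ubiquitin-specific protease, was detected on 2 arrays and that matched to asRNA:CR30267 (AT28638) also on 2. Ten-m (AT25108), a teneurin of cell adhesion, asRNA:CR31429 (AT27571) and CG11333 (AT02774) were detected on all 12 arrays with gaps of -1.12, -0.81 and -0.35.

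Clones present everywhere could show the same rise on a smaller scale. AT26009 had the widest gap of the 46 clones detected on all 12 arrays, at 2.15. It lay between -5.54 and -4.47 on the 9 other arrays and at -1.59, -0.19 and -2.33 on control rapamycin array 3 and knockout rapamycin arrays 1 and 2. AT30334, AT03632 and AT21479 had gaps of 1.82, 1.71 and 1.68. These 4 were picked out after their values were seen.

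The brightest clones showed no such separation. AT25373 had the highest mean level, between 7.15 and 7.49 over the 12 arrays, with a gap of -0.33. AT14009, which matched Vha13, the G subunit of the vacuolar proton pump, lay between 6.06 and 6.88. AT02348 lay between 5.40 and 5.88, AT15050 between 1.09 and 2.16, and AT05170 between 0.80 and 1.44. Their gaps were -0.82, -0.48, -0.88 and -0.20.

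Clones of other libraries on the array did not share the ordering to the same extent. Among clones with a value on every array, the gap was above 0 for 3 of 62 of the GM library from ovary (4.84%), 6 of 122 of the GH library from head (4.92%) and 2 of 93 of the RH library from head (2.15%). It was above 0 for 0 of 17 HL clones from head, 3 of 92 LD clones (3.26%) and 2 of 115 RE clones (1.74%) from embryo. The count was 1 of 29 (3.45%) for the LP clones from larva and pupa and 2 of 67 (2.99%) for the SD clones from S2 cells. The tissues are those the library names are known for. Testis clones were also dimmer, with a median level on the 9 other arrays of -7.61, against -5.11 to -1.30 for the other libraries, and its part in the difference was not tested beyond the count among clones detected everywhere.

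**Figure D3:**
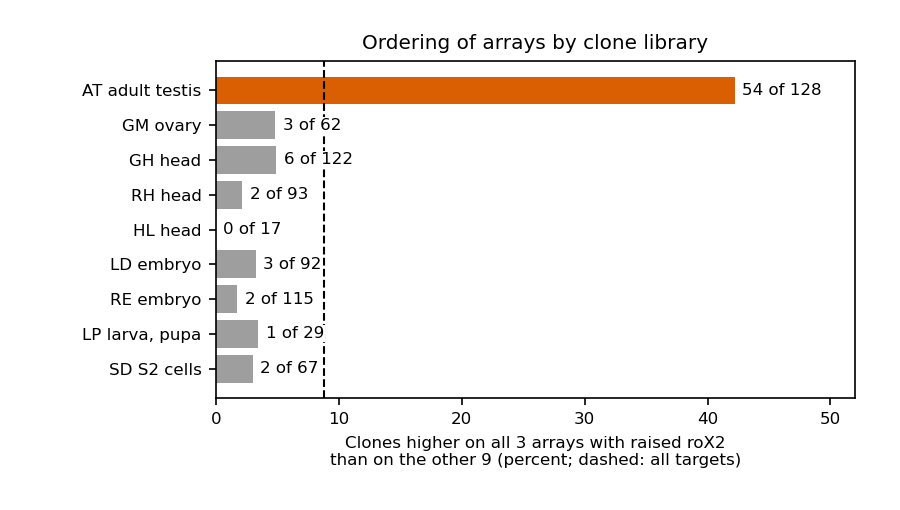
Percent of clones of each cDNA library whose level on every roX2-raised array exceeded that on every other array, with the counts beside the bars and the share of all targets, 8.76%, as a dashed line. The adult testis library stands at 42.2% and the 8 others between 0% and 4.92%.

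Knockout rapamycin array 3, on which the roX2 target with the higher mean was detected at -5.83, is described on its own. It was the highest of the 9 other arrays for 20 clones (15.6%), near the share of all targets, 11.7%. Of these 20, 16 also had a gap above 0, among them AT30951 at -4.54, AT14585 at -5.93 and AT23593 at -6.04. It had 68 detected clones (53.1%) and 73.7% of all targets detected, and its median clone level of -6.78 lay within the range of the others.

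The response to rapamycin asks which clones moved with the food rather than with the 3 arrays. A clone was tested where some group had it well above background on each of its 3 arrays, which 67 of the 128 met and 61 did not. With all 12 arrays in a single limma model of 4 groups, 17 of the 67 clones passed an adjusted p of 0.05 in control larvae, 9 higher and 8 lower after rapamycin. That is 25.4%, against 43.1% of all 18766 tested targets, with 13.4% against 21.3% higher and 11.9% against 21.8% lower. In knockout larvae 9 passed, 5 higher and 4 lower, or 13.4% against 15.3%, with 7.46% against 6.39% higher and 5.97% against 8.94% lower. These fits take the spread between roX2-raised and other arrays as error, and clones such as AT26853 have standard errors of 2.11 in them.

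Without the 3 arrays, 2 control rapamycin arrays were left against 3 ethanol arrays. In this limma fit 21 of the 67 clones passed in control larvae, 8 higher and 13 lower, or 31.3% against 37.8% of all tested targets. The shares of higher calls were 11.9% against 18.7%, and of lower calls 19.4% against 19.1%. In all 21 the 2 rapamycin arrays lay wholly above or below the 3 ethanol arrays. The share of all tested targets in this arrangement was not counted, so it adds no support to the calls. All 8 higher calls were also made with 12 arrays, as were 8 of the 13 lower calls. The median effect was 0.06 over the tested clones and 0.02 over all tested targets. Of the 21, 4 changed at least 2-fold, 2 in each direction, and 18 were detected on all 12 arrays.

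AT22075 rose most. In control larvae it lay at 0.65, -0.54 and -0.04 on ethanol and at 3.00, 2.69 and 2.92 on rapamycin, with the last value from the roX2-raised array. In knockout larvae it lay at 0.26, 0.21 and 0.71 on ethanol and at 1.89, 1.87 and 1.79 on rapamycin. Rapamycin arrays were above ethanol arrays in both genotypes, and its level on the roX2-raised arrays was like that of the others of their group. The rise without those arrays was 2.83 ± 0.34 (SE, limma adjusted p = 0.0012) in control larvae. With 12 arrays it was 1.46 ± 0.26 in knockout larvae (adjusted p = 0.0070) and smaller there than in control larvae by 1.39 ± 0.36 (adjusted p = 0.031). The file names no gene for it.

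The other risers in control larvae were weaker. AT01131 passed (adjusted p = 0.037), but only 1 of its 3 ethanol arrays was detected, so its fitted change of 1.88 is not exact, and the call was lost in 11 and reversed in 2 of 25 alternatives. AT16442 rose by 0.98 ± 0.14 (adjusted p = 0.0025) and AT16856 by 0.70 ± 0.09 (adjusted p = 0.0014). AT23078 (CG8204), AT12446 (CG30385), AT30578 and AT31826 rose by 0.56, 0.52, 0.46 and 0.27, with adjusted p between 0.026 and 0.041. In 26 alternatives the calls of these 4 held in 16, 16, 9 and 12, and AT12446 and AT30578 each changed sign in 2. AT30578 is the only one of the 8 with a gap above 0, of 0.08.

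AT03386 fell most. In control larvae it lay at -1.77, -1.27 and -1.29 on ethanol and at -3.94, -3.70 and, on the roX2-raised array, -2.85 on rapamycin. In knockout larvae it lay at -2.19, -2.42 and -2.61 on ethanol and at -1.80, -2.42 and -2.85 on rapamycin. The control groups did not overlap. The knockout groups did, through the roX2-raised arrays 1 and 2, while rapamycin array 3 lay below all 3 ethanol arrays. Without the roX2-raised arrays the effect in knockout larvae was -0.45. The fall in control larvae was -2.37 ± 0.19 (limma adjusted p = 0.00032) without the roX2-raised arrays and -2.05 ± 0.32 (adjusted p = 0.00069) with them. The effect in knockout larvae was 1.93 ± 0.31 higher than in control larvae (adjusted p = 0.022) without those arrays and 2.10 ± 0.45 higher (adjusted p = 0.014) with them. Its level on ethanol was lower in knockout than in control larvae by -0.96 in the fit without the 3 arrays (adjusted p = 0.046), which did not pass with 12 arrays (adjusted p = 0.098).

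Among the other clones that fell in control larvae, 2 have a named role. Vha13 (AT14009) fell from 6.67, 6.88 and 6.88 to 6.23 and 6.21, a change of -0.59 ± 0.09 (adjusted p = 0.0032), and it read 6.06 on the roX2-raised array. In knockout larvae the 12-array change was -0.35 ± 0.09 (adjusted p = 0.029). AT28563, which matched RpS29, a protein of the small ribosomal subunit, changed by -0.74 ± 0.18 (adjusted p = 0.017) without the roX2-raised array and by -0.55 ± 0.25 (adjusted p = 0.10) with it. Its ethanol level of -4.41 to -4.31 lay below the median of all targets.

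The remaining falls carried no gene name. AT22791 fell by 1.15 ± 0.13 (adjusted p = 0.0011), and AT30951, described above for its gap of 3.78, fell by 0.95 ± 0.28 (adjusted p = 0.036). AT30951 was not detected on control rapamycin array 1, and without that array the change was -0.51 (adjusted p = 0.18); its call was lost in 10 of 25 alternatives. AT19440, AT03160, AT27578, AT28829 and AT15050 fell by 0.66, 0.65, 0.63, 0.55 and 0.54, with adjusted p from 0.0092 to 0.045. The calls of AT19440, AT27578, AT28829 and AT15050 held in 23, 17, 15 and 11 of 26 alternatives. That of AT03160 held in 9 of 25. AT03160 was not well above background on either control rapamycin array of this fit and was so on 2 of the 3 ethanol arrays, so its level is given as at least 1.56-fold higher on ethanol. The probes of AT03160 and of AT28829 disagreed, and the mean of all probes gave changes of 0.25 and 0.13. AT08919, AT24411 and AT09917 were the other 3 lower calls.

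The slide limits these calls, because the 3 control ethanol arrays and control rapamycin array 1 were on slide 1 and the other control rapamycin arrays were on slide 2. With slide as a block the control contrast without the roX2-raised arrays rests on slide 1 alone, and 7 of the 21 calls passed. They were AT22075, AT16442 and AT16856 among the higher clones, and AT03386, AT22791, AT30951 and AT28563 among the lower. The estimates for AT22075 and AT03386 were 2.98 and -2.49. The only rapamycin array on slide 1 is control rapamycin array 1, on which AT30951 was not well above background. Leaving out control rapamycin array 1 gave 8 calls, control ethanol array 2 gave 11 and control ethanol array 3 gave 12, all among the 21. Leaving out control rapamycin array 2 gave 10, of which 8 were among the 21. For these refits, and those described further below, the share of all tested targets is not given. A drop in the count thus cannot be read as particular to the clones.

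In knockout larvae the single rapamycin array without raised roX2 gave little to test. Assumed to vary like the other groups, it left 0 of 67 clones past the threshold in limma, and 1.01% of all tested targets passed. Some of the 67, such as AT11810, were tested only because all 3 knockout rapamycin arrays detected them, array 3 among them. For these clones the filter itself favours array 3 over the ethanol arrays. Leaving out knockout ethanol array 2 gave 2 calls. The 9 calls of the 12-array fit included AT22075, AT16442 (0.56), AT16856 (0.43) and AT17348 (0.40), which were higher, and AT19440 (-0.64), AT23078 (-0.56), Vha13 and AT09917 (-0.32), which were lower. The ninth was AT28206, higher by 1.87 ± 0.48 (adjusted p = 0.030), which has a gap of 0.69 and lay at -2.59 and -3.60 on the roX2-raised arrays and -4.46 on the third. With slide as a block, with the roX2 level as a covariate, and within slide 3, 0 of the 9 passed. Leaving out knockout rapamycin array 3 gave 25 calls, and leaving out arrays 1 and 2 of that group gave 5 and 6. It was 15 without control rapamycin array 3 and 3 without knockout ethanol array 1 or 3.

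**Figure D4:**
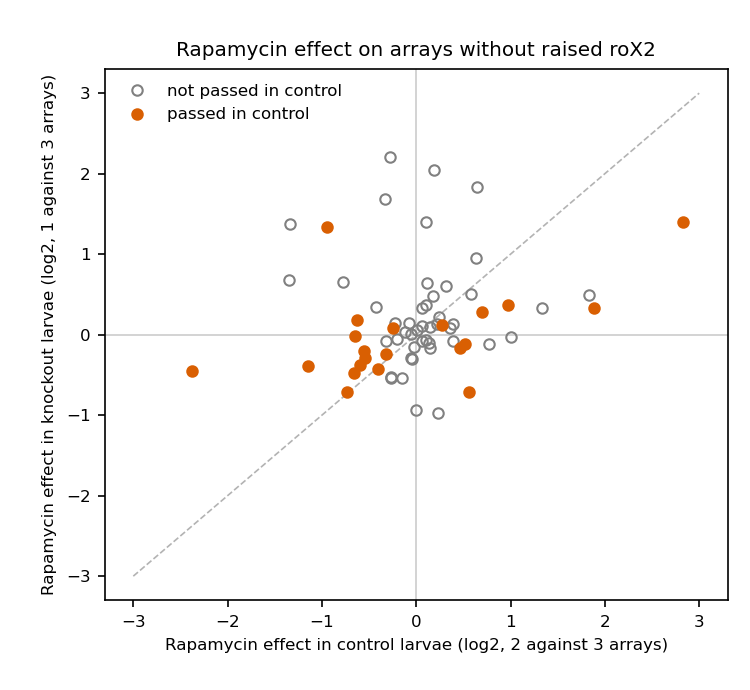
Log2 effect of rapamycin in knockout larvae against that in control larvae for the 67 tested clones, without the roX2-raised arrays; each point is a clone, filled where it passed limma in control larvae, and the dashed line marks equal effects. The 21 filled clones range from -2.37 to 2.83 in control larvae, and none of the 67 passed in knockout larvae.

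Whether the rapamycin effect differed between genotypes was tested directly. Without the roX2-raised arrays 3 of 67 clones passed (4.48%, against 5.21% of all tested targets), and with 12 arrays also 3 (4.48%, against 14.6%). AT03386 and AT23078 passed in both. AT23078 lay at -0.11, 0.36 and 0.15 on ethanol and 0.68, 0.72 and 0.77 on rapamycin in control larvae. In knockout larvae it lay at 0.13, -0.19 and -0.03 on ethanol and -0.51, -0.52 and -0.75 on rapamycin. It was thus higher on rapamycin in control larvae and lower in knockout larvae, with no overlap between foods in either, and the effects differed by -1.28 ± 0.24 (adjusted p = 0.036) without the 3 arrays and by -1.15 ± 0.18 (adjusted p = 0.0026) with them. The remaining call without them was AT30951, with a difference of 2.29. It rests on a single knockout rapamycin array, on which the roX2 target with the higher mean was also detected. AT22075 passed with 12 arrays, as given above. With slide as a block 0 clones passed in either fit. Without the roX2-raised arrays, leaving out control ethanol array 3 or control rapamycin array 1 gave 0 calls. Leaving out control ethanol array 2, control rapamycin array 2, or knockout ethanol array 1 or 3 gave 1, and in the 12-array fit leaving out knockout rapamycin array 1 gave 5.

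Knockout and control larvae were also compared on ethanol food, where no array had raised roX2. The 3 control ethanol arrays were all on slide 1, and the knockout ethanol arrays were on slides 2 and 3. No slide held both, so genotype and slide cannot be told apart in the calls below. With 12 arrays 2 of 67 clones passed (2.99%, against 6.32% of all tested targets). AT07490 (CG9133) lay at -1.06, -1.77 and -2.08 in control and at -2.93, -3.14 and -2.77 in knockout larvae, a difference of -1.31 ± 0.31 (adjusted p = 0.041). AT17348 lay at -0.18, -0.15 and -0.20 in control and at 0.12, 0.44 and 0.20 in knockout larvae, higher by 0.43 ± 0.08 (adjusted p = 0.024). In both the groups did not overlap. With the spread taken from the 9 arrays neither passed (adjusted p = 0.093 and 0.063), AT03386 was the 1 call (1.49%, against 2.42%), and with slide as a block 0 passed. The count was 6 without control ethanol array 1, 0 without control ethanol array 2 or 3 or knockout ethanol array 3, and 1 without knockout ethanol array 2, control rapamycin array 3 or any knockout rapamycin array.

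**Figure D5:**
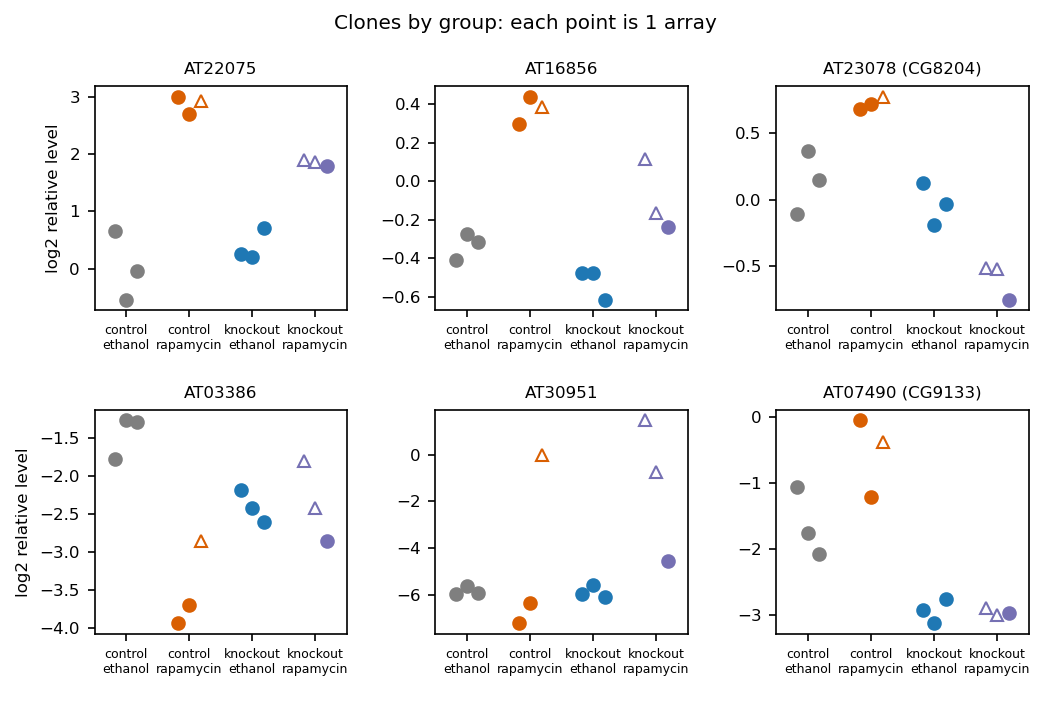
Levels (log2 relative to the array's 75th percentile) of 6 clones by group, 1 point per array, with open triangles for the 3 roX2-raised arrays. AT22075 and AT16856 are higher on rapamycin in both genotypes, AT23078 moves in opposite directions, AT03386 is lower on rapamycin in control larvae, AT30951 is high on the triangles, and AT07490 is lower in knockout larvae.

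For reference, the target of f-cup, a gene transcribed after meiosis in spermatids, is a clone of a head library and had a gap of -1.47. It lay at -0.29, -0.30 and -0.29 in control larvae on ethanol and at 1.23, 1.29 and 1.35 on rapamycin. Its rise in control larvae was 1.55 ± 0.06 (limma adjusted p = 5.6e-05) without the roX2-raised array. In these larvae its level was as high on the roX2-raised array as on the other rapamycin arrays, unlike the 54 clones above. In knockout larvae f-cup lay at -0.38, -0.38 and -0.40 on ethanol. On rapamycin it lay at -0.01 and -0.18 on the roX2-raised arrays and at -0.24 on array 3. The effect there was 0.24 ± 0.07 with 12 arrays (adjusted p = 0.040) and 0.14 without the roX2-raised arrays.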

How the data were processed

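The scanner output deposited by the authors gives the intensity of each spot. The submitters' processing notes name Agilent Feature Extraction 10.7. Its background-corrected processed signal was used. A deposited value table of intensity on a linear scale, made by a step not given in the sources used here, followed the quantile-normalised median signal (r of at least 0.9999 on the log2 scale on every array) and was an alternative. Its column medians ran from 144 to 157.

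Each array had 43602 spots other than controls, of which 72.5% to 82.7% were well above background and 0 saturated. Precision is limited by how many arrays there are. Outlier spots were left out, and spots of a probe were averaged. The probe with the highest mean stood for each of 25857 targets (32162 probes), and 18766 were tested. Gene names came from a RefSeq table. limma 3.58.1 in R 4.3.3 was fitted to log2 levels of all tested targets, with Benjamini-Hochberg adjustment, two-sided, threshold 0.05. The 4-group model had 8 residual degrees of freedom with 12 arrays and 5 with the 9 arrays on which roX2 was at or below -3. Errors of effects are standard errors. Bounds use the lowest signal well above background.

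Clones named were the 12 widest gaps, the called clones without overlap (10 highest and 10 lowest in control larvae, 5 and 5 otherwise), the 5 brightest, and those with a gene name; others are marked. Members and lists were chosen with earlier results of these data known. Same-numbered arrays did not deviate together (correlations from -0.82 to 0.18). The lowest, -0.82 and -0.69, each set a roX2-raised array against one that was not. Whether the numbers pair samples thus cannot be told, and the main fits used no pairing. On simulated data the 9-array fit recovered 17.9% of changes of 0.5 and 62.7% of changes of 1 on the log2 scale. It also made 12 false calls among 18766 simulated targets, against 1 for the 12-array fit. Only 66 or 67 simulated targets were changed by each size, whereas 37.8% of tested targets passed in the real 9-array control contrast. These rates may thus not carry over to the real fit.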

Additional observations from a re-analysis of the deposited data

Results flagged for a closer look

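The rapamycin effect differed between genotypes for 4 clones by limma's test of the difference, knockout minus control. Without the roX2-raised arrays the differences were 1.93 for AT03386, -1.28 for AT23078 and 2.29 for AT30951 on the log2 scale. With all 12 arrays they were 2.10 for AT03386, -1.15 for AT23078 and -1.39 for AT22075. In 12 arrays AT30951 differed by 3.29 ± 2.63 (adjusted p = 0.46), and without the 3 arrays AT22075 differed by -1.43 ± 0.55 (adjusted p = 0.19). With slide as a block none of the 4 passed.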

How the results depend on the processing

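The count of 54 clones with a gap above 0 was 42 to 55 with other scalings, the deposited value table, all spots or the mean of all probes. It was 35 for a gap of at least 1, 12 among clones detected on all 12 arrays and 23 among tested clones, some of which passed that filter through the knockout rapamycin group. As a bound against the detection limit, added after seeing the data, it was 52. With the normexp background correction it was 2, and also 2 with that method's maximum likelihood estimate, an alternative added after seeing the data. Normexp lifted the dim end of control ethanol array 2, whose 5th percentile was -1.41 against -4.79 to -4.39 on the other arrays; with that array not counted among the others it gave 50.

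Calls with 12 arrays were 17 for rapamycin in control larvae, 9 in knockout larvae, 3 for the difference and 2 for knockout against control on ethanol. Normexp gave 6, 1, 2 and 0, and its other estimate the same. Slide as a block gave 9, 0, 0 and 0. The replicate block gave 17, 5, 3 and 1, and an adjusted p of 0.01 gave 10, 1, 1 and 0. Within slide 1 the control count was 7, and within slide 3 the knockout count was 0, as with roX2 as a covariate. On ethanol food, median centring gave 0, quantile normalisation, the deposited table and no filter each gave 1, and detection on all 12 arrays or a variance trend gave 4. Over all tested targets, the median rapamycin effect in the 2 genotypes, control first, moved from 0.05 and 0.01 to -0.14 and -0.31 with median centring.

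Without the 3 arrays the counts were 21, 0 and 3 for control, knockout and difference. Normexp gave 4, 0 and 0, and its other estimate 3, 0 and 0. No filter on dim probes gave 13, 5 and 6, and the values the authors deposited gave 17, 2 and 5. Slide as a block gave 7, 0 and 0, the replicate block 10, 0 and 0, and an adjusted p of 0.01 gave 7, 0 and 0. Within slide 1 the control count was 7. Leaving out 1 array gave 14 to 21, 3 to 25, 2 to 5 and 0 to 6 calls with 12 arrays in the above order, and 8 to 21, 0 to 2 and 0 to 4 without the 3 arrays.

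Some rises and falls in control larvae changed sign. Normexp gave -0.65 for AT01131, -0.40 for AT12446 and -0.57 for AT30578, and its other estimate -0.66, -0.41 and -0.58. The mean of all probes gave 0.25 for AT03160 and 0.13 for AT28829, whose probes disagree. AT22075 and AT03386 passed under all 26 alternatives run for them. The cause of the other changes was not tested. Detection limits what can be said of the 61 clones not tested.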
